A study of Homo sapiens with 36 samples.

Results

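The whole-transcriptome response to insulin in normal medium was measured in HepG2-IGF1R-KO cells. HepG2 is a line from a human liver tumour, and the genotype label of these cells is a knockout of IGF1R, the IGF-1 receptor gene. Insulin-stimulated cells (9 libraries) received 3 nM human insulin for 18 h, and untreated cells (9 libraries) received none. Both groups carried the IGF1R-KO genotype and were kept in normal medium, which the growth protocol gives as DMEM with 10% FBS, and the libraries of both carry a time label of 72 h. The 18 libraries were taken by title from 36 in the series, whose other libraries are of cells in insulin-resistant medium. The labels call the libraries of a group biological replicates and give no word on clones, and cells with an intact IGF1R were not analysed here. The comparison asks which transcripts insulin alters.

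Insulin acts on liver cells through the insulin receptor, IRS proteins, PI3-kinase and AKT. AKT excludes FOXO factors from the nucleus, which silences genes of glucose release such as G6PC1 and PCK1, and it activates mTORC1, which drives protein synthesis, and SREBP-1c, which drives fatty acid synthesis. Hepatocytes also make most plasma proteins, so secretion and its folding machinery in the endoplasmic reticulum (ER) weigh heavily in their transcriptome.

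Libraries held 30.6M to 111.9M counts in stimulated cells and 59.9M to 116.8M in untreated cells, and they came from batches dated 22 April (5 stimulated and 4 untreated), 11 April (2 and 2) and 24 May (2 and 3). The composition of the libraries was uneven. Transcripts of 25 stromal markers, genes of collagen-producing cells, took 0.0263% to 0.0322% of the counts in stimulated replicates 4 to 6. They took 2.95% to 6.13% in the other 6 stimulated libraries and 2.75% to 7.69% in untreated libraries. COL1A1, a fibrillar collagen, was at 0.784 to 1.70 CPM (counts scaled to library size) in stimulated replicates 4 to 6, at 9747 to 20495 CPM in the other stimulated libraries and at 8071 to 28224 CPM in untreated ones. Of the markers of the labelled cell type, hepatocyte, ALB, albumin, was at 4322 to 12854 CPM in stimulated and 5754 to 10467 CPM in untreated libraries; the collagens named above are not hepatocyte markers. The level of 23 hepatocyte markers, relative to the 18 libraries, was 1.48 to 1.65 in stimulated replicates 4 to 6, 0.583 to 1.07 (median 0.728) in the other stimulated libraries and 0.844 to 1.48 (median 0.983) in untreated ones. Untreated replicates 7 to 9 also stood apart, with FN1, fibronectin, at 32497 to 34818 CPM against at most 16635 CPM in every other library of the 18. In bulk RNA, fewer cells of a type and less RNA per cell cannot be told apart. Counts over gene lists are therefore given for all 18 libraries and for the 15 that remain without stimulated replicates 4 to 6, and for single genes the value of the 15 is given where the call changed or the log2 fold change moved by over 1.5 times, and for some leading genes. Counts in a fit with the replicate number as a block are given where they moved by over 1.5 times.

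**Figure D1:**
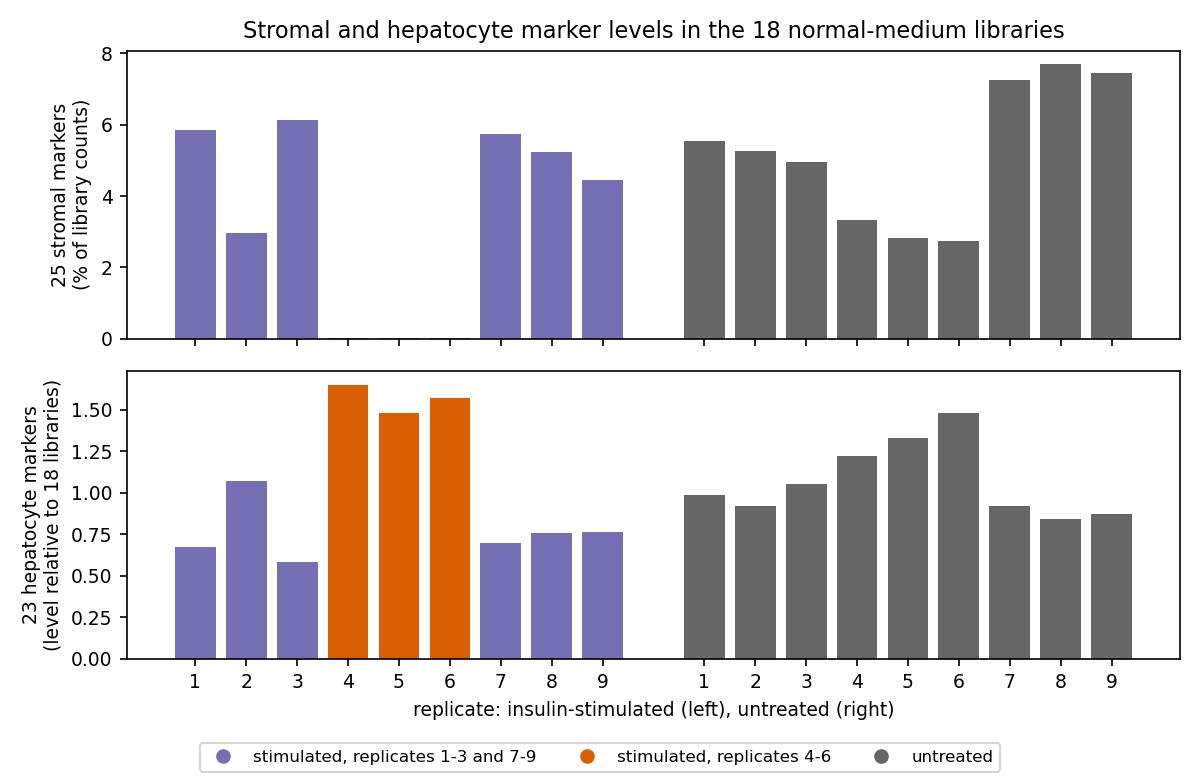
Composition of the 18 libraries. The upper bars give the summed share of 25 stromal markers in % of library counts and the lower bars the level of 23 hepatocyte markers relative to the 18 libraries, with stimulated replicates on the left and untreated ones on the right. Stimulated replicates 4 to 6 hold at most 0.0322% stromal counts and the highest hepatocyte levels (1.48 to 1.65) among stimulated libraries.

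Of 14 endothelial markers with a count 8 were tested, and their sum was 16.9 to 31.6 CPM in stimulated and 12.4 to 20.4 CPM in untreated libraries. Of 12 leukocyte markers with a count 9 were tested, with CD3E, MS4A1 and TYROBP at 0 throughout, and their sum was 344 to 912 CPM in stimulated and 676 to 1267 CPM in untreated libraries. Of 10 cholangiocyte markers 8 were tested, and their sum was 831 to 1433 CPM in stimulated and 931 to 1163 CPM in untreated libraries. The part of these markers in the results was not tested.

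With batch date as a covariate, edgeR's quasi-likelihood test at a Benjamini-Hochberg adjusted p under 0.05 called 2844 genes higher (16.6% of 17129 tested) and 1847 lower (10.8%) in stimulated than in untreated cells. Without stimulated replicates 4 to 6 it called 2228 higher (12.7% of 17517) and 2318 lower (13.2%), and with the replicate number as a block 1422 and 1545. Counts over gene lists in the following are to be read beside these shares of all genes tested. In both fits 1937 genes were higher (11.3%) and 1423 lower (8.31%), and 0 were called in opposite directions. All 15 libraries of the second fit are also in the first, so opposite calls were unlikely beforehand. Of the 4691 genes called with 18 libraries, 1331 were called only there. Groups did not overlap for 3.59% of genes that were higher and 2.23% that were lower, and for 3.85% and 5.25% without stimulated replicates 4 to 6. Within the batches of 22 April, 11 April and 24 May 119, 0 and 2028 genes were higher and 393, 0 and 1232 lower. On 11 April, with 2 libraries a group, 933 genes had an unadjusted p under 0.05. On 24 May the untreated libraries were replicates 4 to 6. The stimulated ones were replicate 2 and replicate 4, which differ in stromal share. Scaled to the hepatocyte markers, the split of the 18 libraries was 2577 higher and 950 lower.

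Libraries did not vary independently within a group. Replicates 1 to 3, 4 to 6 and 7 to 9 form sets whose deviations from the group mean had a median correlation of 0.78 within sets (18 pairs) and -0.45 across them (54 pairs). The p-values treat 9 libraries as 9 replicates. With each set summed to 1 sample, edgeR called 0 genes higher and 0 lower with all sets (2539 at an unadjusted p under 0.05), and 2 higher and 16 lower without the stimulated set of replicates 4 to 6. Among those 18 genes were EREG, which was higher, and G6PC1, SLC2A2, TNFSF10, HP, HPR, SPTLC3, ACSM3, SLC1A2, DEPP1, SMLR1, SERPINA3, SERPINA11 and SERPIND1, which were lower.

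**Figure D2:**
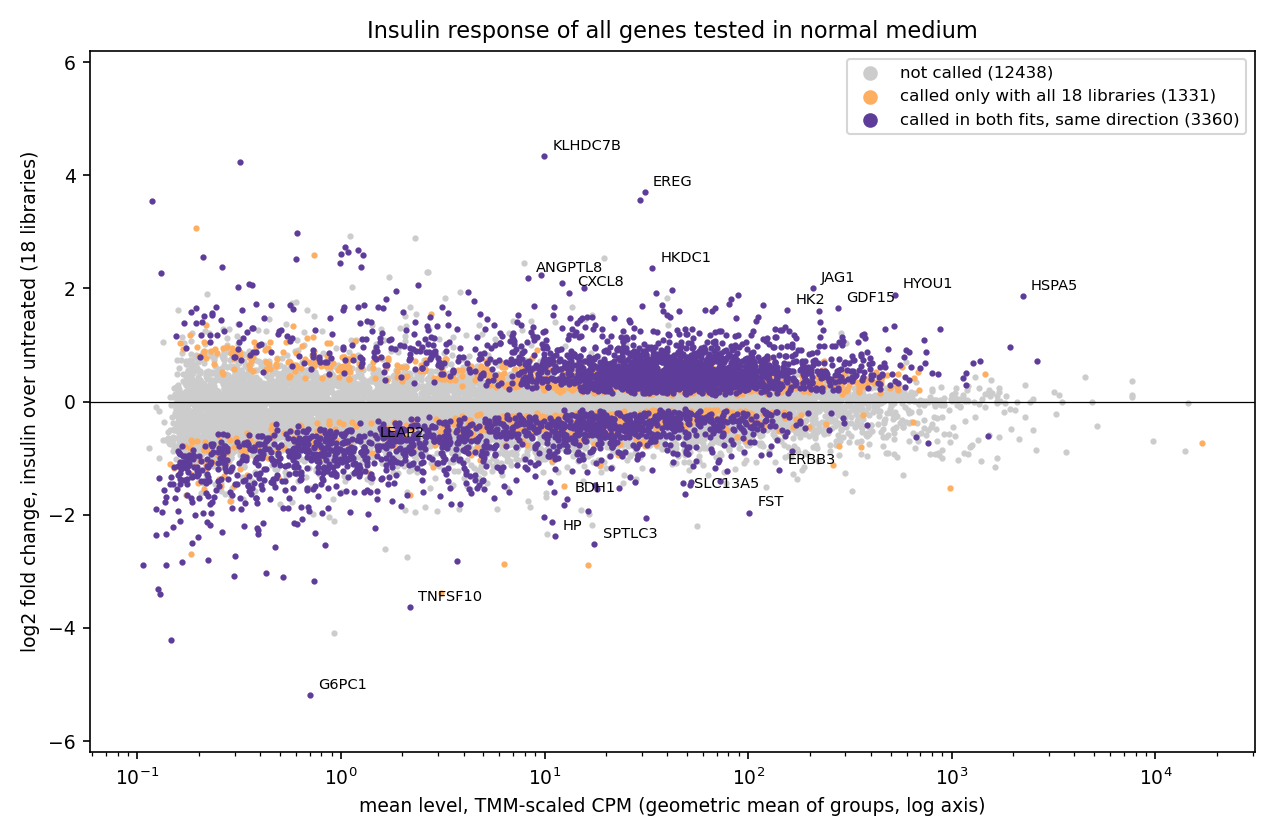
Insulin response of the 17129 genes tested with all 18 libraries. The horizontal axis is the mean level in CPM scaled by edgeR's TMM factors (log axis) and the vertical axis the log2 fold change of stimulated over untreated cells; purple genes (3360) were called in both fits in the same direction. The deepest fall is that of G6PC1 (-5.19) and the largest rise among labelled genes that of KLHDC7B (4.34).

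Of 32 tested genes of the insulin signalling pathway 6 were higher and 5 lower, with a median log2 fold change of 0.02 beside -0.05 over all genes and 27.4% of all genes called in either direction, and 5 were higher and 4 lower without stimulated replicates 4 to 6. Levels in the following are TMM-scaled CPM, given as the lowest to the highest library with the median, and each log2 fold change of stimulated over untreated cells has its standard error (SE). DEPTOR, an inhibitor of mTOR, was at 0.342 to 0.769 CPM (median 0.4929) in stimulated and 1.07 to 1.47 CPM (median 1.26) in untreated cells. The ranges did not overlap, and DEPTOR fell at -1.35 ± 0.16 (edgeR adjusted p = 4.8e-05), with -1.48 without stimulated replicates 4 to 6. The adaptor genes SH2B3 and GRB10, of which GRB10 binds and restrains the insulin receptor, rose with log2 fold changes of 0.61 ± 0.10 and 0.56 ± 0.12 (edgeR adjusted p = 0.000364 and 0.00241). PIK3R1, the regulatory subunit of PI3-kinase, rose by a smaller amount at 0.28 ± 0.06 (edgeR adjusted p = 0.00493), a call lost without untreated replicates 7 to 9 (0.22, edgeR adjusted p = 0.0596) and with no filter on low counts (0.21, edgeR adjusted p = 0.0533). PHLPP1, a phosphatase of AKT, fell at -0.44 ± 0.10 (edgeR adjusted p = 0.00309).

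The calls of both receptors depended on the libraries. INSR, the insulin receptor, was at 42.7 to 78.96 CPM (median 46.7) in stimulated and 59.4 to 76.9 CPM (median 63.1) in untreated cells, with a log2 fold change of -0.20 ± 0.12 (edgeR adjusted p = 0.235). Stimulated replicates 4 to 6 held 65.68 to 78.96 CPM of it, and without them it was called lower at -0.39 (edgeR adjusted p = 0.00183). IGF1R, the gene knocked out, had transcripts in all 18 libraries, at 75.8 to 104 CPM (median 92.3) in stimulated and 83.9 to 147 CPM (median 105) in untreated cells. Its log2 fold change of -0.35 ± 0.10 (edgeR adjusted p = 0.0221) was not called without stimulated replicates 4 to 6 (-0.30, edgeR adjusted p = 0.0825), nor without untreated replicates 7 to 9 (-0.15). A count over the whole gene is no test of the knockout. IRS2, an adaptor of the receptor, was, in CPM of the library total, at 0, 0 and 0.098 CPM in stimulated replicates 4 to 6, at 12.8 to 48.4 CPM in the other stimulated libraries and at 16.0 to 33.8 CPM in untreated ones. In the same way, 440 of the 11191 genes with a mean of at least 5 CPM in both the other stimulated and the untreated libraries averaged under 0.1 CPM in stimulated replicates 4 to 6.

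Of 23 tested genes of glucose output 8 were lower and 1 higher in insulin-stimulated cells (median log2 fold change -0.34), and 9 and 1 without stimulated replicates 4 to 6 (-0.26). Without untreated replicates 7 to 9, 5 were lower and 2 higher. G6PC1, the glucose-6-phosphatase enzyme, which releases free glucose, stood at 0.113, 0.124, 0.0447, 0.228, 0.186, 0.0924, 0.102, 0.0972 and 0.0181 CPM in stimulated replicates 1 to 9. In untreated replicates 1 to 9 it stood at 4.32, 4.39, 4.27, 3.51, 3.99, 4.83, 3.65, 3.37 and 3.97 CPM. The 9 stimulated libraries held 1 to 16 counts of it against 198 to 546 in the untreated ones, and no stimulated library came near the untreated range. It fell at -5.19 ± 0.31 (edgeR adjusted p = 2.21e-07) and -5.52 without stimulated replicates 4 to 6. SLC2A2, the glucose transporter GLUT2 through which hepatocytes exchange glucose with blood, was at 7.82 to 22.0 CPM (median 11.0) in stimulated and 36.1 to 47.5 CPM (median 38.01) in untreated cells. It fell at -1.53 ± 0.19 (edgeR adjusted p = 5.44e-05) with no overlap. PCK1, phosphoenolpyruvate carboxykinase, was at 2.28 to 5.87 CPM (median 2.91) in stimulated and 5.24 to 9.43 CPM (median 6.84) in untreated cells, where the ranges overlapped by way of stimulated replicates 4 and 6 alone. It fell at -0.91 ± 0.18 (edgeR adjusted p = 0.00155) and at -1.26 without stimulated replicates 4 to 6.

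The regulators of this programme moved in part. CREB3L3, a liver transcription factor that is activated in fasting, was at 2.73 to 8.74 CPM (median 5.23) in stimulated and 11.6 to 19.3 CPM (median 13.8) in untreated cells and fell at -1.32 ± 0.19 (edgeR adjusted p = 0.000183). PPARGC1A, the coactivator PGC-1α of gluconeogenesis, was at -0.34 ± 0.24 (edgeR adjusted p = 0.315). It was called lower at -0.75 without stimulated replicates 4 to 6 (edgeR adjusted p = 0.00252). The member that rose was GOT1, the cytosolic aspartate aminotransferase, at 125 to 317 CPM (median 187) in stimulated and 77.6 to 99.2 CPM (median 92.2) in untreated cells with a log2 fold change of 1.15 ± 0.17 (edgeR adjusted p = 0.000198). Scaled to the hepatocyte markers without stimulated replicates 4 to 6, which shifts all genes nearly alike and moved their median to 0.39, the list's median was 0.11, and 7 members were lower and 8 higher.

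Of 22 other targets of FOXO factors 4 were higher and 4 lower, beside 16.6% and 10.8% of all genes. Without stimulated replicates 4 to 6 these counts were 5 and 7, beside 12.7% and 13.2% of all genes. BCL6, a transcriptional repressor, fell at -0.63 ± 0.08 (edgeR adjusted p = 0.000119), and INSIG2, which holds SREBP precursors in the ER, fell at -0.62 ± 0.09 (edgeR adjusted p = 0.000189), both with no overlap between the groups. MAP1LC3B, a component of autophagosomes, rose to 246 to 513 CPM (median 344) in stimulated cells, against 129 to 171 CPM in untreated cells (1.13 ± 0.13, edgeR adjusted p = 4.63e-05). TRIB1, a pseudokinase, and CDKN1B, the cell cycle inhibitor p27, rose at 1.24 ± 0.20 and 0.62 ± 0.09 (edgeR adjusted p = 0.000326 and 0.000225). IGFBP1, an IGF-binding protein that insulin is known to repress in liver, was not called in either fit. It was called higher by DESeq2 on the 18 libraries (0.68, DESeq2 adjusted p = 0.037). The same held in edgeR with all 36 libraries in the fit (0.72, edgeR adjusted p = 0.0137). It was at 334 to 1593 CPM (median 633) in stimulated and 304 to 785 CPM (median 441) in untreated cells, with 891 to 1593 CPM in stimulated replicates 4 to 6 and 1104 CPM in stimulated replicate 2, and a log2 fold change of 0.70 ± 0.28 (edgeR adjusted p = 0.0775), or 0.30 without stimulated replicates 4 to 6 (edgeR adjusted p = 0.312).

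**Figure D3:**
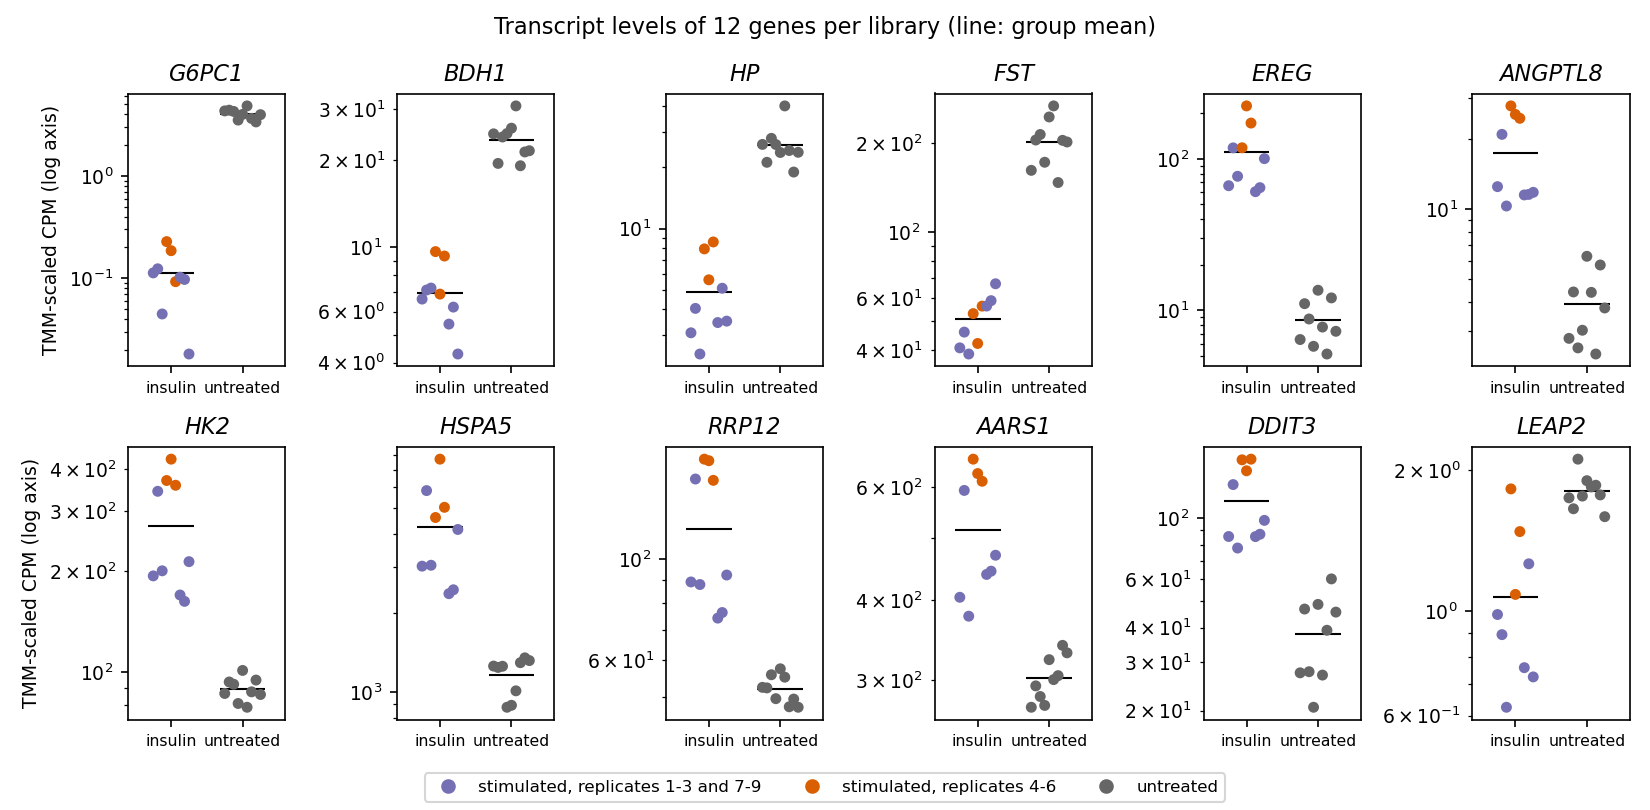
Levels of 12 genes in each library in TMM-scaled CPM (log axis), with stimulated libraries left of untreated ones and a line at each group mean; stimulated replicates 4 to 6 are orange. G6PC1, BDH1, HP and FST are lower in all 9 stimulated libraries, EREG, ANGPTL8, HK2, HSPA5, RRP12, AARS1 and DDIT3 are higher in all 9, and LEAP2 overlaps.

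In glucose uptake and glycolysis the genes called higher were SLC2A1, SLC2A3 and HK2, of the entry steps. Of 27 tested genes 3 were higher and 2 lower, and 2 and 4 without stimulated replicates 4 to 6. In the fit with the replicate block 2 were higher and 8 lower. HK2, a hexokinase of high glucose affinity that adult hepatocytes scarcely use, was at 162 to 428 CPM (median 213) in stimulated and 78.9 to 101 CPM (median 87.6) in untreated cells. It rose at 1.61 ± 0.18 (edgeR adjusted p = 3.84e-05) with no overlap. HKDC1, which encodes a hexokinase domain protein, rose to 34.4 to 143 CPM (median 67.6) in stimulated cells, against 12.7 to 20.4 CPM (median 13.8) in untreated cells (2.36 ± 0.25, edgeR adjusted p = 2.27e-05). SLC2A1, the glucose transporter GLUT1, was at 581 to 1153 CPM (median 729) in stimulated and 388 to 518 CPM (median 459.6) in untreated cells and rose at 0.87 ± 0.15 (edgeR adjusted p = 0.000463). PFKL, the liver phosphofructokinase, was lower at -0.41 ± 0.11 (edgeR adjusted p = 0.0131), a call lost without untreated replicates 7 to 9 (-0.38, edgeR adjusted p = 0.0769). SLC13A5, a citrate transporter of the hepatocyte membrane, fell at -1.63 ± 0.18 (edgeR adjusted p = 3.08e-05).

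Genes of fatty acid and cholesterol synthesis were called in both directions, as were 16.6% (higher) and 10.8% (lower) of all genes with 18 libraries. Without stimulated replicates 4 to 6 the shares of all genes were 12.7% and 13.2%. Of 23 tested genes of fatty acid synthesis 4 were higher and 3 lower (median -0.03), and 3 and 7 without stimulated replicates 4 to 6 (-0.15). Of 26 cholesterol synthesis genes 5 were higher and 2 lower, and 2 and 9 without those libraries. With the replicate block the 15 libraries gave 2 higher and 3 lower of the fatty acid genes and 1 higher and 5 lower of the cholesterol genes. SREBF1, which encodes SREBP-1c, was at 82.1 to 176 CPM (median 110.4) in stimulated and 69.0 to 107 CPM (median 95.7) in untreated cells. Its log2 fold change of 0.38 ± 0.11 (edgeR adjusted p = 0.0198) was not called without stimulated replicates 4 to 6 (0.20, edgeR adjusted p = 0.125). FASN, the fatty acid synthase, ranged over 1107 to 3042 CPM (median 1264) in stimulated and 979 to 1881 CPM (median 1259) in untreated cells, with overlap (0.38 ± 0.16, edgeR adjusted p = 0.1). FASN was called higher with all 36 libraries in the fit (0.42, edgeR adjusted p = 0.0248) and without stimulated replicate 2 (0.45, edgeR adjusted p = 0.0447). SCD, the stearoyl-CoA desaturase, was at 0.10 ± 0.16 (edgeR adjusted p = 0.68), and at -0.20 without stimulated replicates 4 to 6. The p-values that miss the threshold do not show that FASN and SCD were alike in both groups.

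Single lipid genes did move. PNPLA3, a lipid droplet protein that SREBP-1c is known to induce, was at 7.62 to 16.4 CPM (median 11.3) in stimulated and 15.8 to 23.7 CPM (median 19.9) in untreated cells and fell at -0.77 ± 0.11 (edgeR adjusted p = 0.000199). ACACB, the acetyl-CoA carboxylase of mitochondria, fell at -0.60 ± 0.15 (edgeR adjusted p = 0.00713). LPIN1, a phosphatidate phosphatase, fell at -0.32 ± 0.06 (edgeR adjusted p = 0.00106). ACSL3, a long-chain acyl-CoA synthetase of lipid droplets, rose at 0.66 ± 0.14 (edgeR adjusted p = 0.00259) and at 0.39 without stimulated replicates 4 to 6. STARD4, a sterol carrier, rose at 0.74 ± 0.13 (edgeR adjusted p = 0.000577). MVK, the mevalonate kinase, fell at -0.39 ± 0.10 and SCAP, the escort of SREBPs, rose at 0.33 ± 0.09 (edgeR adjusted p = 0.0106 and 0.0116), and both calls were lost without untreated replicates 7 to 9. SCAP was at 0.20 without stimulated replicates 4 to 6.

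Of 19 tested genes of lipid droplets and lipolysis 3 were higher and 0 lower, beside 16.6% and 10.8% of all genes, and 3 and 5 without stimulated replicates 4 to 6. The replicate block gave 3 higher and 3 lower. ANGPTL8, an insulin-induced secreted inhibitor of lipoprotein lipase, was at 10.3 to 27.7 CPM (median 12.5) in stimulated and 2.39 to 6.27 CPM (median 3.76) in untreated cells. It rose at 2.19 ± 0.24 (edgeR adjusted p = 2.97e-05), or 1.83 without stimulated replicates 4 to 6. GPAT3, which starts glycerolipid synthesis in the ER, was at 11.6 to 44.1 CPM (median 21.9) in stimulated and 4.05 to 7.63 CPM (median 5.92) in untreated cells (2.09 ± 0.24, edgeR adjusted p = 3.91e-05). PLIN2, the coat protein of lipid droplets, rose at 1.07 ± 0.15 and LIPG, the endothelial lipase, at 0.87 ± 0.18 (edgeR adjusted p = 0.000151 and 0.00209), with LIPG at 0.55 without stimulated replicates 4 to 6.

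Many genes of fatty acid oxidation and ketone body synthesis fell. Of 25 tested genes 13 were lower and 1 higher, with a median of -0.31, and 15 and 1 without stimulated replicates 4 to 6 (-0.35). BDH1, which interconverts the ketone bodies acetoacetate and 3-hydroxybutyrate, was at 4.28 to 9.67 CPM (median 6.90) in stimulated and 19.1 to 30.8 CPM (median 24.1) in untreated cells and fell at -1.72 ± 0.13 (edgeR adjusted p = 1.64e-06). All 9 stimulated libraries lay below the untreated ones. CPT2, which hands acyl groups to the mitochondrial matrix, and RXRA, the partner of the receptor PPARα, fell at -0.47 ± 0.06 and -0.49 ± 0.06 (edgeR adjusted p = 5.44e-05 and 6.6e-05). ACSM3, an acyl-CoA synthetase of medium-chain acids, was at 4.25 to 10.6 CPM (median 5.42) in stimulated and 20.3 to 28.3 CPM (median 23.1) in untreated cells (-1.83 ± 0.16, edgeR adjusted p = 6.18e-06). Scaling the 15 libraries to hepatocyte markers, which shifts all genes nearly alike, moved the medians of the list and of all genes to 0.03 and 0.39.

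**Figure D4:**
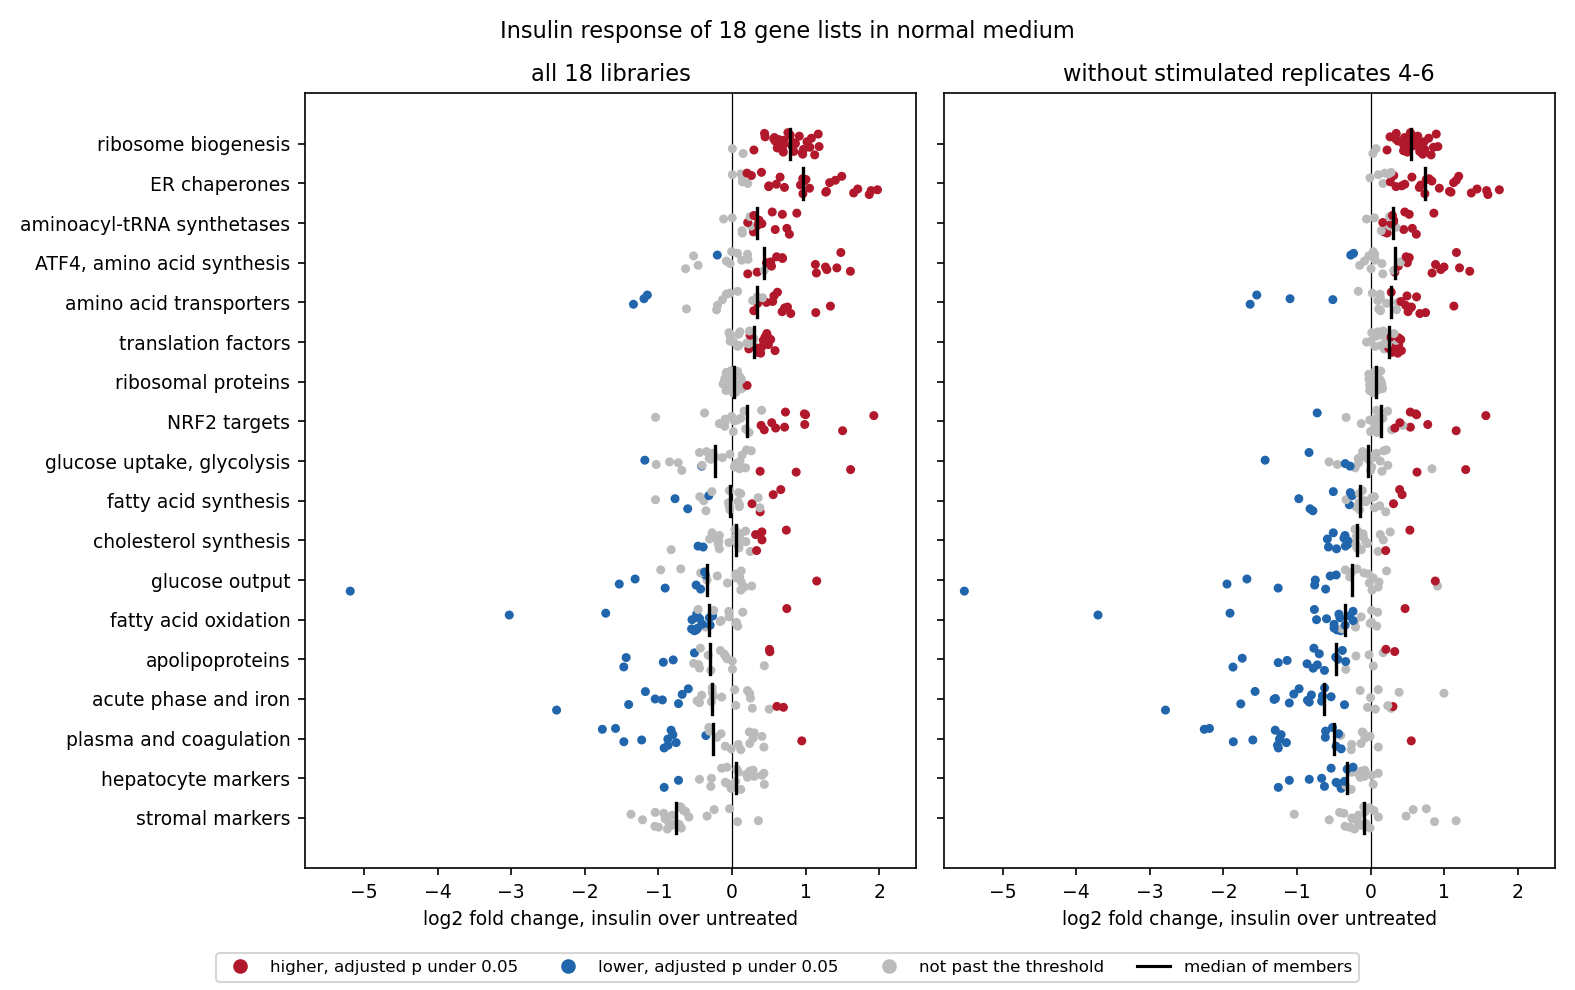
Log2 fold changes of stimulated over untreated cells for each tested member of 18 gene lists, with all 18 libraries (left panel) and without stimulated replicates 4 to 6 (right panel). Red and blue members were higher and lower at an edgeR adjusted p under 0.05, grey members were not called, and a black line marks the list's median, which runs to 0.79 and 0.96 for ribosome biogenesis and ER chaperones with 18 libraries.

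Secreted liver proteins were lower for many genes, and the count depended on the libraries. Of 20 tested apolipoprotein and lipoprotein genes 5 were lower and 2 higher, against 14 of 21 lower and 2 higher without stimulated replicates 4 to 6. Of 25 acute phase and iron genes 8 were lower and 2 higher, against 16 of 26 lower and 1 higher. Of 26 plasma and coagulation genes 11 were lower and 1 higher, against 16 and 1. With the replicate block 9 of the apolipoprotein genes were lower, and without untreated replicates 7 to 9 5 of the acute phase genes were. Of the 23 hepatocyte markers 2 were lower with all libraries (median 0.05) and 12 without stimulated replicates 4 to 6 (-0.32), and 4 with the block in the 15 libraries; the markers share members with each of these 3 lists. Scaled to these markers, the 18 libraries had 10, 14 and 12 members of the same 3 lists lower and 2, 5 and 7 higher.

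HP, haptoglobin, which binds free haemoglobin, was at 2.41 to 8.60 CPM (median 4.05) in stimulated and 18.99 to 40.2 CPM (median 24.2) in untreated cells. It fell at -2.38 ± 0.23 (edgeR adjusted p = 9.65e-06). HPR, haptoglobin-related protein, fell at -2.82 ± 0.23 (edgeR adjusted p = 2.37e-06), but it is a near copy of HP and the split of reads between the pair cannot be checked. APOM, the apolipoprotein that carries sphingosine-1-phosphate, was at 16.6 to 41.8 CPM (median 25.7) in stimulated and 64.5 to 119 CPM (median 75.6) in untreated cells (-1.44 ± 0.17, edgeR adjusted p = 5.05e-05). APOA5 and APOC3, an activator and an inhibitor of triglyceride clearance, fell together at -1.47 ± 0.21 and -0.93 ± 0.17 (edgeR adjusted p = 0.00017 and 0.000894).

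Among protease inhibitors and clotting proteins, SERPINA3, antichymotrypsin, was at 24.8 to 71.9 CPM (median 35.1) in stimulated and 109 to 147 CPM (median 115) in untreated cells (-1.40 ± 0.17, edgeR adjusted p = 4.9e-05). SERPINA7, thyroxine-binding globulin, SERPIND1, heparin cofactor II, and SERPINA11 fell at -1.47 ± 0.20, -1.23 ± 0.18 and -2.04 ± 0.18 (edgeR adjusted p = 0.000126, 0.000208 and 4.59e-06). KNG1, kininogen, was at 0.476 to 1.85 CPM (median 0.921) in stimulated and 2.54 to 3.81 CPM (median 3.36) in untreated cells (-1.76 ± 0.26, edgeR adjusted p = 0.000209). TTR, the carrier transthyretin, and FGA, the fibrinogen alpha chain, which are also hepatocyte markers, fell at -0.92 ± 0.17 and -0.73 ± 0.18 (edgeR adjusted p = 0.00117 and 0.00615), with overlap that came from stimulated replicates 4 to 6. Without those, FGA was at -1.10. ITIH3, which stabilises hyaluronan, fell at -0.95 ± 0.18 (edgeR adjusted p = 0.00117). HAMP, the iron hormone hepcidin, was at 0.637 to 3.14 CPM (median 1.17) in stimulated and 2.36 to 6.23 CPM (median 3.69) in untreated cells (-1.18 ± 0.30, edgeR adjusted p = 0.00774), a call that was lost at -1.08 without untreated replicates 7 to 9 (edgeR adjusted p = 0.0545).

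In bile acid genes, CYP8B1, the sterol 12-alpha-hydroxylase that sets the cholic acid share, was at 0.0298 to 0.399 CPM (median 0.146) in stimulated and 1.04 to 1.73 CPM (median 1.44) in untreated cells, 2 to 28 counts a library against 61 to 218. It fell at -3.10 ± 0.43 (edgeR adjusted p = 0.000141). NR1H4, the bile acid receptor FXR, rose at 1.12 ± 0.21 (edgeR adjusted p = 0.00109) and at 0.70 without stimulated replicates 4 to 6, with overlapping groups. The list as a whole had 4 of 20 tested members higher and 2 lower, and 2 and 9 of 21 without stimulated replicates 4 to 6. The replicate block gave 3 higher and 4 lower.

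LEAP2, which encodes a liver-derived antagonist of the ghrelin receptor and is named in the title of the series, was at 0.985, 0.893, 0.625, 1.82, 1.09, 1.48, 0.759, 1.26 and 0.726 CPM in stimulated replicates 1 to 9. In untreated replicates 1 to 9 it was at 1.75, 1.65, 2.11, 1.76, 1.90, 1.84, 1.86, 1.77 and 1.59 CPM. Those levels are 40 to 128 and 93 to 222 counts a library. The groups overlapped only through stimulated replicate 4, and LEAP2 fell at -0.74 ± 0.18 (edgeR adjusted p = 0.0067), or -1.06 without stimulated replicates 4 to 6 (edgeR adjusted p = 0.000107). It stayed between -0.90 and -0.62 when each library was left out in turn.

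Of 25 tested hepatokine and IGF genes 4 were higher and 5 lower, beside 16.6% and 10.8% of all genes. Without stimulated replicates 4 to 6 the list had 6 higher and 8 lower (2 and 6 with the replicate block), beside 12.7% and 13.2% of all genes. FST, follistatin, which binds activins, was at 38.8 to 66.9 CPM (median 53.1) in stimulated and 147 to 267 CPM (median 204) in untreated cells. It fell at -1.96 ± 0.12 (edgeR adjusted p = 2.84e-07) and at -1.92 without stimulated replicates 4 to 6, with no overlap in either. INHBE, which encodes the activin E subunit made by hepatocytes, moved the opposite way, at 47.1 to 126 CPM (median 61.4) in stimulated and 15.3 to 42.9 CPM (median 27.3) in untreated cells (1.5997 ± 0.26, edgeR adjusted p = 0.000373). GDF15, a stress-induced hormone that lowers food intake, was at 272 to 755 CPM (median 370.4) in stimulated and 99.9 to 268 CPM (median 148) in untreated cells and rose at 1.65 ± 0.21 (edgeR adjusted p = 9.45e-05). VEGFA, the vascular growth factor, rose at 0.72 ± 0.16 (edgeR adjusted p = 0.00368) and at 0.46 without stimulated replicates 4 to 6.

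Most genes of the ER folding machinery rose. Of 29 tested ER chaperone and unfolded protein response genes 24 were higher and 0 lower (median 0.96), and 23 and 0 without stimulated replicates 4 to 6 (0.74). For 17 members all 9 stimulated libraries lay above all untreated ones, beside 3.59% of all genes. HSPA5, the master chaperone BiP, was at 2370 to 7688 CPM (median 4156) in stimulated and 877 to 1352 CPM (median 1256) in untreated cells. It rose at 1.86 ± 0.22 (edgeR adjusted p = 4.73e-05). HYOU1, its nucleotide exchange factor, was at 503 to 1872 CPM (median 861) in stimulated and 235 to 299 CPM (median 279) in untreated cells (1.89 ± 0.23, edgeR adjusted p = 6.22e-05). SDF2L1, MANF and DNAJB9, cofactors of BiP, rose at 1.98 ± 0.22, 1.71 ± 0.19 and 1.65 ± 0.21 (edgeR adjusted p = 2.97e-05, 2.87e-05 and 7.07e-05). XBP1, a transcription factor of the same response, was at 268 to 417 CPM (median 289) in stimulated and 216 to 362 CPM (median 293) in untreated cells and was not called (0.14 ± 0.11, edgeR adjusted p = 0.356); total counts do not separate its spliced form.

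Promoters of all gene lists were searched for a set of motifs, and those of the ER list are given first. RefSeq promoter windows (GRCh38.p14, 250 bases before to 50 after the gene's start) were matched by symbol for 27 of the 29 members and for 76.8% of the tested genes with a symbol, so shares are set beside those of all windows in the table. The ER stress element was searched on both strands as CCAAT and CCACG with 9 bases of any kind between them. It was present in 22 of 27305 windows in the table (0.0806%) and in 7 of the 27 members (25.9%), namely CALR, CANX, CRELD2, ERO1B, HSP90B1, HSPA5 and XBP1. The element is named for the stress response of such genes, and the lists were chosen with earlier results of these data known. Shares of motifs in lists, here and below, therefore describe the lists and are no test. Of 14 tested genes with a match, 12 were called higher with 18 libraries and 11 in both fits. Of all genes tested, 16.6% and 11.3% were so called. XBP1 and ZNF17 were called in neither fit. The 14 include members of the ER list, so these counts are no test either. The genes outside the list that were higher in both fits were FICD (log2 fold change 1.38), TRIM5 (0.51), TMEM120A (0.49), SERP1 (0.47) and EIF2A (0.35). They are named for the match and for being called in both fits. ALG12 (0.23), also outside the list, was called higher with 18 libraries alone. A match describes letters in a window and is not shown to be a bound site. The FOXO element TGTTTAC was in 0 of 18 glucose output windows and 1 of 16 of the FOXO target list. It was in 1.83% of genes higher in both fits, 3.73% of lower ones, 2.33% of all tested genes with a window and 3.41% of all windows in the table. For the insulin response element TGTTTTG these shares were 3.46%, 3.42%, 3.14% and 4.91%. The antioxidant response element TGACNNNGC was in 4 of 18 NRF2 target windows (22.2%), beside 13.6% of all windows in the table and 15.1% of tested genes. Of the 6 windows of NRF2 targets that were higher in both fits, 0 held it. The windows of HSPA5 (chr9:125241294-125241593, minus strand) and HSP90B1 (chr12:103930160-103930459, plus strand), which encodes the ER chaperone GRP94 and was chosen for its pair of matches, are shown in the direction of transcription. Capitals mark the element, which in the second match of HSP90B1 lies on the opposite strand.
HSPA5: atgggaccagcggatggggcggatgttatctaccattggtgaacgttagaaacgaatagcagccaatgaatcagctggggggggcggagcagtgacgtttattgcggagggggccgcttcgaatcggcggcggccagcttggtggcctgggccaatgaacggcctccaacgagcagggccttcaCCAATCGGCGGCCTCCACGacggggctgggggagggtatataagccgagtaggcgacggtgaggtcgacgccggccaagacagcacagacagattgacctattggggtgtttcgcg
HSP90B1: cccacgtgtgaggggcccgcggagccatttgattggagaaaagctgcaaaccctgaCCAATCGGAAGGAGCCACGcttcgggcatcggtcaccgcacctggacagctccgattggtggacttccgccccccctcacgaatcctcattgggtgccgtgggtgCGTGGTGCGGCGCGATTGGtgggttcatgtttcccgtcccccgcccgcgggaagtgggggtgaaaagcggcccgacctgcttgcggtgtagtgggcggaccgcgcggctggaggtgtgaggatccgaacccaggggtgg
HSP90B1 was at 1681 to 4491 CPM (median 2417) in stimulated and 1208 to 1553 CPM (median 1398) in untreated cells, with a log2 fold change of 0.96 ± 0.17 (edgeR adjusted p = 0.000727).

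Ribosome assembly rose almost throughout its list. Of 33 tested ribosome biogenesis genes 31 were higher and 0 lower in both fits, with medians of 0.79 and 0.55, and FBL and NHP2 were the members not called. For 23 members all 9 stimulated libraries lay above the untreated ones, beside 3.59% of all genes. RRP12, a factor of small-subunit maturation, was at 74.3 to 166 CPM (median 92.3) in stimulated and 47.4 to 57.5 CPM (median 52.2) in untreated cells (1.18 ± 0.15, edgeR adjusted p = 9.45e-05). DDX21, a nucleolar RNA helicase, and POLR1B, a core subunit of RNA polymerase I, rose at 1.17 ± 0.16 and 1.08 ± 0.15 (edgeR adjusted p = 0.000129 and 0.00015). RRP9, a U3 snoRNP protein, was at 36.3 to 79.2 CPM (median 51.8) in stimulated and 25.2 to 32.2 CPM (median 28.9) in untreated cells (1.06 ± 0.15, edgeR adjusted p = 0.000151). Of 49 ribosomal protein genes 1 was higher and 0 lower, with a median of 0.03, and without stimulated replicates 4 to 6 edgeR called 0 of the 49.

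MYC, the transcription factor whose E-box targets include nucleolar genes, was at 244 to 559.9 CPM (median 288) in stimulated and 154 to 268 CPM (median 181) in untreated cells. It rose at 0.98 ± 0.16 (edgeR adjusted p = 0.000434), and the ranges overlapped. ODC1, the first enzyme of polyamine synthesis, rose to 352 to 790.3 CPM (median 474) in stimulated cells, against 213 to 299 CPM (median 251) in untreated cells (1.19 ± 0.16, edgeR adjusted p = 0.000113). The nucleotide and polyamine list held 11 of 29 members higher and 0 lower, and 9 and 0 without stimulated replicates 4 to 6. The block by replicate gave 13 higher and 2 lower. The E-box CACGTG was found in 11 of 29 ribosome biogenesis promoters with a window (37.9%), beside 7.43% of all windows in the table and 9.81% of tested genes. The window of RRP9 (chr3:51941855-51942154, minus strand) is shown as one of them, with the E-box in capitals.
RRP9: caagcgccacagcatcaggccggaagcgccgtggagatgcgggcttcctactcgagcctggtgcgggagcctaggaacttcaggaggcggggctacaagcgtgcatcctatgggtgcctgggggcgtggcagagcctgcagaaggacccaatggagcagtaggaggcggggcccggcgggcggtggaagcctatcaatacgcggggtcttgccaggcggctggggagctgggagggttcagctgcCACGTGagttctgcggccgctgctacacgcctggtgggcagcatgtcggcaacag
The letters read the same on both strands and lie close to the gene's start.

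Of 27 translation factors 15 were higher and 0 lower, and 11 and 0 without stimulated replicates 4 to 6. Without untreated replicates 7 to 9, 9 were higher, and without these and stimulated replicates 4 to 6, 5. Members called higher included EIF2S2, a subunit of the initiation factor eIF2, at 0.58 ± 0.10 and EIF4A1, an RNA helicase of initiation, at 0.49 ± 0.10 (edgeR adjusted p = 0.000633 and 0.0022). EIF4A1 was not called without both of these sets (0.32, edgeR adjusted p = 0.0827). Of 20 aminoacyl-tRNA synthetases, which charge tRNAs with amino acids, 14 were higher and 0 lower (median 0.34), and 13 and 0 without stimulated replicates 4 to 6 (0.30). With the replicate block those 15 libraries gave 7 and 0. AARS1, the alanyl-tRNA synthetase, was at 377 to 663 CPM (median 469) in stimulated and 272 to 339.6 CPM (median 300.3) in untreated cells. It rose at 0.78 ± 0.11 (edgeR adjusted p = 0.000129) with no overlap, and VARS1, YARS1 and WARS1, the enzymes for valine, tyrosine and tryptophan, rose at 0.68 ± 0.12, 0.55 ± 0.09 and 0.88 ± 0.16 (edgeR adjusted p = 0.000836, 0.000314 and 0.000704). The amino acid response element, searched as TGATGNAA on both strands, was in 6 of 16 synthetase promoters with a window (37.5%) and in 3.67% of all windows. The window of AARS1 (chr16:70289457-70289756, minus strand) carries it on the opposite strand, so the capitals show its reverse complement.
AARS1: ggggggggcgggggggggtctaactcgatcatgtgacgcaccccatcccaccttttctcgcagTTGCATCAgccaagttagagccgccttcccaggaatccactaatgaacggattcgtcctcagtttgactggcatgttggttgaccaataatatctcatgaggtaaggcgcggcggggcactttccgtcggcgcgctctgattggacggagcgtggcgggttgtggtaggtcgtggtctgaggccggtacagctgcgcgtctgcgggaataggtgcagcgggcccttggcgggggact
The synthetases with a match were AARS1, CARS1, IARS1, MARS1, NARS1 and TARS1.

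Of 25 amino acid transporters 12 were higher and 3 lower, and 11 and 4 without stimulated replicates 4 to 6 (6 and 4 with the replicate block). SLC3A2, the heavy chain of amino acid exchangers, was at 540.5 to 1189 CPM (median 699.6) in stimulated and 201 to 439 CPM (median 321) in untreated cells (1.34 ± 0.19, edgeR adjusted p = 0.000151), and SLC7A11, its cystine-carrying partner, rose at 0.71 ± 0.13 (edgeR adjusted p = 0.000692). SLC1A2, a glutamate transporter, went down, at 11.7 to 24.4 CPM (median 12.8) in stimulated and 36.3 to 48.2 CPM (median 41.1) in untreated cells (-1.34 ± 0.16, edgeR adjusted p = 4.02e-05). SLC16A10, a carrier of aromatic amino acids, fell at -1.15 ± 0.20 (edgeR adjusted p = 0.000734).

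Genes known as targets of ATF4, the transcription factor of the integrated stress response, rose in 15 of 27 cases and fell in 1, and rose in 13 and fell in 2 without stimulated replicates 4 to 6. DDIT3, the stress factor CHOP, was at 77.7 to 163 CPM (median 97.9) in stimulated and 20.6 to 60.1 CPM (median 39.1) in untreated cells. It rose at 1.61 ± 0.22 (edgeR adjusted p = 0.000141), and PPP1R15A, which reverses eIF2 phosphorylation, and TRIB3, a pseudokinase that binds AKT, rose at 1.42 ± 0.17 and 1.29 ± 0.19 (edgeR adjusted p = 5.44e-05 and 0.000181). CTH, which makes cysteine, and CEBPB, a partner of ATF4, rose at 1.48 ± 0.18 and 1.27 ± 0.19 (edgeR adjusted p = 6.63e-05 and 0.000199). The transcript of ATF4 itself was at 0.21 ± 0.07 (edgeR adjusted p = 0.035), and was not called without stimulated replicates 4 to 6 (0.17, edgeR adjusted p = 0.124) or with the replicate block (0.22, edgeR adjusted p = 0.0585).

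Among growth factor signalling genes, EREG, a ligand of the EGF receptor family, was at 60.7 to 224 CPM (median 100.3) in stimulated and 5.15 to 13.6 CPM (median 7.75) in untreated cells. It rose at 3.70 ± 0.31 (edgeR adjusted p = 2.66e-06) with no overlap, and at 3.29 without stimulated replicates 4 to 6. The receptors ERBB3 and ERBB2 fell: ERBB3 was at 54.8 to 141 CPM (median 74.8) in stimulated and 197 to 264 CPM (median 208) in untreated cells (-1.21 ± 0.17, edgeR adjusted p = 0.000169), and ERBB2 was at -0.49 ± 0.07 (edgeR adjusted p = 0.000272). PHLDA1 and DUSP6, which are induced by and restrain growth factor signalling, rose at 1.59 ± 0.18 and 0.77 ± 0.11 (edgeR adjusted p = 3.84e-05 and 0.000151). Of 28 tested genes of this list 5 were higher and 2 lower in either fit. Under the replicate block 9 were higher and 3 lower, and 10 and 2 without stimulated replicates 4 to 6. JAG1, a ligand of Notch receptors, was at 232 to 654 CPM (median 344) in stimulated and 69.7 to 163 CPM (median 98.0) in untreated cells (2.01 ± 0.22, edgeR adjusted p = 2.87e-05).

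Of 26 targets of NRF2, the regulator of antioxidant genes, 11 were higher and 0 lower, and 9 and 1 without stimulated replicates 4 to 6. Blocked by replicate, 10 were higher and 2 lower. GCLC, which makes the glutathione precursor, was at 114 to 290.5 CPM (median 166) in stimulated and 55.3 to 81.5 CPM (median 64.7) in untreated cells (1.5015 ± 0.19, edgeR adjusted p = 6.98e-05). AKR1B10, an aldo-keto reductase, and SRXN1, sulfiredoxin, rose at 1.93 ± 0.20 and 0.99 ± 0.13 (edgeR adjusted p = 2.42e-05 and 0.000103). Of 22 inflammation genes 8 were higher and 1 lower, and 7 and 2 of 23 without stimulated replicates 4 to 6. CXCL8 and CCL20, chemokines for neutrophils and lymphocytes, were at 14.2 to 48.8 CPM (median 23.1) and 16.8 to 49.0 CPM (median 22.8) in stimulated cells, against 3.37 to 9.59 CPM (median 6.74) and 7.92 to 15.1 CPM (median 12.2) in untreated cells (1.93 ± 0.25 and 1.28 ± 0.20, edgeR adjusted p = 9.58e-05 and 0.000363). NFKB1 and RELB, subunits of NF-kB, rose at 0.54 ± 0.07 and 0.72 ± 0.13 (edgeR adjusted p = 8.1e-05 and 0.000894). The leukocyte marker list above had 0 of 9 members higher and 3 lower, and which cells gave the inflammation transcripts was not tested.

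Of 29 cell cycle genes 1 was higher and 0 lower in either fit, and the count depended on the setting. With the replicate block 5 were higher and 8 lower, and 1 and 6 without stimulated replicates 4 to 6. Without these and untreated replicates 7 to 9, 1 was higher and 7 lower. The gene called in the first 2 fits was CDC6, which licenses replication origins, at 53.4 to 138 CPM (median 101) in stimulated and 22.5 to 67.8 CPM (median 37.3) in untreated cells (1.17 ± 0.27, edgeR adjusted p = 0.00462). It was not called without both of these sets (0.61, edgeR adjusted p = 0.129). Of 28 respiratory chain genes 2 were higher and 3 lower, and 1 and 0 without stimulated replicates 4 to 6 (2 and 6 with the replicate block in all 18). Of 19 hypoxia genes 2 were higher and 2 lower, and 1 and 1 without stimulated replicates 4 to 6 (1 and 5 with the block in all 18). Of 22 p53 targets 9 were higher and 0 lower, and 8 and 0 without stimulated replicates 4 to 6, with SESN2, which senses leucine for mTORC1, at 1.13 ± 0.18 and TNFRSF10B, a TRAIL receptor, at 1.13 ± 0.17 (edgeR adjusted p = 0.000371 and 0.000198). TNFSF10, the ligand TRAIL itself, was at 0.328 to 1.17 CPM (median 0.599) in stimulated and 5.70 to 10.3 CPM (median 7.10) in untreated cells and fell at -3.63 ± 0.25 (edgeR adjusted p = 6.21e-07). Of 26 cytosolic and mitochondrial heat shock and metallothionein genes 6 were higher and 3 lower, and 5 and 2 without stimulated replicates 4 to 6. Under the replicate block 7 were higher and 5 lower, and 2 and 2 in the 15 libraries, and without untreated replicates 7 to 9 3 were higher and 3 lower. HSPA9, the mitochondrial HSP70, rose at 0.91 ± 0.14 (edgeR adjusted p = 0.000279). In amino acid breakdown 6 of 24 were higher and 1 lower, against 4 higher and 8 lower without stimulated replicates 4 to 6. With the replicate block 5 were higher and 3 lower, and 3 and 3 in the 15 libraries. TAT, tyrosine aminotransferase, rose at 1.10 ± 0.20 (edgeR adjusted p = 0.00101) and at 0.70 in the 15 libraries. Of 26 liver transcription factors 5 were higher and 2 lower, beside 16.6% and 10.8% of all genes. Without stimulated replicates 4 to 6, 4 and 6 of these factors were called (2 and 3 with the replicate block). ESAM, an adhesion molecule kept in the endothelial marker list, rose at 1.69 ± 0.22 (edgeR adjusted p = 9.59e-05), while 2 of the other 7 endothelial markers tested were lower.

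Over all genes with a symbol, 762 were called in both fits with no overlap between groups and a mean of at least 5 CPM in the higher group, 567 of them rises and 195 falls. KLHDC7B had the largest rise, at 20.0 to 91.1 CPM (median 34.9) in stimulated and 0.612 to 5.27 CPM (median 1.82) in untreated cells (4.34 ± 0.51, edgeR adjusted p = 4.96e-05). F2RL1, the protease-activated receptor PAR2, was at 76.7 to 363 CPM (median 162) in stimulated and 36.4 to 63.5 CPM (median 46.2) in untreated cells (1.89 ± 0.27, edgeR adjusted p = 0.000168). CPLX2, complexin 2, which acts in vesicle fusion, and SLC17A2, a member of the phosphate transporter family, rose at 1.82 ± 0.20 and 2.01 ± 0.26, and PLEKHH2 rose at 2.24 ± 0.32 (edgeR adjusted p = 2.74e-05, 9.59e-05 and 0.000181).

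Among the falls, SPTLC3, a subunit of the serine palmitoyltransferase that starts sphingolipid synthesis, was at 3.69 to 13.1 CPM (median 6.78) in stimulated and 33.1 to 48.7 CPM (median 43.4) in untreated cells (-2.51 ± 0.21, edgeR adjusted p = 2.66e-06). DEPP1, a known FOXO target, was at 7.52 to 24.5 CPM (median 11.9) in stimulated and 47.5 to 87.4 CPM (median 63.8) in untreated cells (-2.05 ± 0.19, edgeR adjusted p = 8.55e-06). PDZK1, a scaffold of the HDL receptor SR-BI, fell at -2.12 ± 0.19 (edgeR adjusted p = 6.71e-06). CLDN19, a tight junction claudin, LDLRAD4, an inhibitor of TGF-beta signalling, PLPPR1 and SMLR1 fell at -1.82 ± 0.23, -1.82 ± 0.22, -1.71 ± 0.20 and -1.93 ± 0.21 (edgeR adjusted p = 6.6e-05, 5.18e-05, 3.89e-05 and 2.59e-05).

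Of the 124 genes reported with a fold change, leaving aside those named only among the genes with a stress element, 118 were called with 18 libraries. All 118 had the same sign within each of the 3 batches, and 115 were also called in the same direction without stimulated replicates 4 to 6. The batches make up the 18 libraries, and most of these genes were named for being called in both fits. Both counts therefore follow largely from the choice of genes and are no independent support. The genes called with 18 libraries alone were IGF1R, SREBF1 and ATF4. The 6 that were not called with 18 libraries were INSR, PPARGC1A, IGFBP1, FASN, SCD and XBP1.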

How the data were processed

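RNA-seq of HepG2-IGF1R-KO cells was analysed from the deposited table of expected counts per gene. Reads were processed with STAR and Salmon against GRCh37, per the submitters' processing notes (no versions named there). Of 57771 genes 26152 were at 0 in all 18 libraries, and 15.5% of the deposited expected counts were not whole (tolerance 1e-09) and were rounded. The table gives gene IDs, and 68.4% of them received a symbol from a reference table of gene IDs and symbols.

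Libraries were grouped by title, and each column was tied to its library by name. edgeR 4.0.16 in R 4.3.3 (robust quasi-likelihood, TMM scaling, filterByExpr) fitted group and batch date over the 18 libraries, and again without stimulated replicates 4 to 6. Adjusted p-values are Benjamini-Hochberg over all genes tested. CPM are scaled by TMM factors, save where the library total is named. The script was tested on simulated counts. DESeq2 1.42.0, other scalings and filters, single batches, summed sets of 3 and leaving out each library were alternatives.

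Same-numbered libraries of the groups deviated together (correlation 0.192 to 0.509 in 9 of 9 pairs). Only 3 of the 9 stimulated libraries correlated best with the untreated library of their own number. Replicate numbers 2, 5 and 6 join libraries of different batch dates, so the numbers are no sure pairing. The fits of group and batch date used no pairing, and the replicate block was an alternative. The lowest chi-square per gene between replicates was 10.27, so no library was a repeat of another. Nothing in the labels says that replicates came from separate cultures, so p-values measure the spread between these libraries, which may be technical.

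The members and the 36 gene lists were chosen with earlier results of these data known. Genes were named as the 15 largest rises and falls called in both fits with no overlap and a mean of at least 5 CPM in the higher group, up to 5 called members of each list by adjusted p, and a set of insulin-related genes; HSP90B1 and the genes with an ER stress element were chosen after their values were seen. TXNIP, SOD2, ACACA, GPIHBP1, BOP1, EIF1A, PECAM1 and CD24 were not analysed here, and a few list members are not reported here.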

Additional observations from a re-analysis of the deposited data

Results flagged for a closer look

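Of 248 groups of 9 libraries, 1 for each reported gene and condition, 12 held a library whose gap to its nearest neighbour passed Dixon's critical value at 95%, and chance flags about 1 group in 20. In stimulated cells this was PLEKHH2 in replicate 5, at 54.35 CPM. In untreated replicate 6 it was AKR1B10 at 27.66 CPM, HPR at 14.8 CPM, HP at 40.21 CPM, PDZK1 at 31.36 CPM, SMLR1 at 46.83 CPM, INSIG2 at 79.74 CPM, APOM at 119.3 CPM, FGA at 1322 CPM and TTR at 93.27 CPM. In untreated replicate 5 it was INSR at 76.92 CPM and POLR1B at 57.24 CPM. Each of these values was the highest of its group. Untreated replicate 6 also had the highest hepatocyte marker level (1.48) and the lowest stromal share (2.75%) of the untreated libraries, and the part of either in these values was not tested.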

How the results depend on the processing

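With all 18 libraries, genes called higher and lower came to 2844 and 1847. These counts moved by over 1.5 times in the following settings, and except where fewer samples or genes entered by construction the cause was not tested. Without untreated replicates 7 to 9, 1230 were lower. With all 36 libraries in the fit 4485 were higher, and with a term for the set of replicates 3584 were lower. With sets summed to 1 sample 0 were higher and 0 lower by edgeR (2539 at an unadjusted p under 0.05; DESeq2 was not run on the sums). Scaled to hepatocyte markers 950 were lower, and scaled so without stimulated replicates 4 to 6, 8995 were higher and 977 lower. Within 22 April 119 were higher and 393 lower, and within 11 April 0 and 0 (933 at an unadjusted p under 0.05). Leaving out 1 library gave 2122 to 3667 higher and 1224 to 2393 lower. The fewest higher (2122) came without untreated replicate 4. Leaving out stimulated replicate 2 gave the most higher (3667) and the fewest lower (1224).

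Without stimulated replicates 4 to 6 the counts were 2228 and 2318. Alternatives of that fit, chosen after seeing the data save the hepatocyte scaling and the one without untreated replicates 7 to 9, gave 1422 and 1545 with the replicate block, 2 and 16 with sets summed, 675 and 1412 within 22 April and 0 and 0 within 11 April (2127 at an unadjusted p under 0.05). Leaving out 1 library gave 1699 to 2169 higher and 2082 to 2589 lower.

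Of the 124 reported genes, the replicate block changed the call of ATF4 (0.22) and no other. Of 118 called genes, 115 kept their call whichever library was left out. With sets summed, and within 11 April, edgeR's calls of all 118 were lost. Signs turned for IGF1R (0.07), PFKL (0.10) and LPIN1 (0.12) when scaled to hepatocyte markers without stimulated replicates 4 to 6, which shifts all genes nearly alike and moved their median to 0.39. XBP1 was at -0.01 without stimulated replicates 4 to 6 and at -0.01 within 22 April. SCD was at -0.20 without stimulated replicates 4 to 6, at -0.10 without these and untreated replicates 7 to 9, at -0.12 within 22 April, and at -0.06 to 0.18 with 1 library left out, being below 0 without untreated replicate 2 (-0.01), stimulated replicate 5 (-0.06) or stimulated replicate 6 (-0.05). Depth limits genes of few counts, such as G6PC1 with as little as 1 count in a stimulated library.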
